A study of Mus musculus with 36 samples.

Results

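The genes of excitation contraction coupling and of the calcium stores of muscle were followed in mouse diaphragm, the main breathing muscle, from control and mdx mice. Members were all probe sets that the platform annotation gives to 1 of 7 gene symbols: Cacna1s, Cacng1, Ryr1, Atp2a1, Atp2a2, Casq1 and Casq2. This gave 8 probe sets, since Atp2a1 has a pair of them (162223_f_at and 98126_s_at, called here the _f_at and the _s_at probe set), among 12422 probe sets of the array that are not controls, and 7 genes of 8251 that are named by probe sets with 1 symbol. The other 6 genes have 1 probe set each: 101128_at for Cacna1s, 100896_at for Cacng1, 100003_at for Ryr1, 99570_s_at for Atp2a2, 102426_at for Casq1 and 93053_at for Casq2. The suffixes _f_at and _s_at are the array maker's mark for probes that can also match related transcripts, so the values of Atp2a1 and Atp2a2 may hold signal of relatives. The mdx mouse carries a mutation of Dmd and lacks full-length dystrophin, the protein that ties the muscle fibre's skeleton to its membrane. Total RNA from diaphragm muscle was hybridised to 1-colour arrays at 7, 14, 23, 28, 56 and 112 days of age, 3 arrays per genotype and age, 36 arrays in 12 groups. The labels name the groups only as control or mdx with an age; strain, sex and pooling of animals are not given in the sources used here. Nothing says that the numbered replicates came from separate animals, and a p-value therefore reflects how far these arrays scatter, a scatter that may be technical.

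In a skeletal muscle fibre the action potential runs into the transverse tubules, where the voltage-sensing calcium channel of the tubule membrane opens the ryanodine receptor of the sarcoplasmic reticulum by direct contact. Calcium leaves the reticulum, binds troponin and starts contraction; calcium pumps then return it to the reticulum, where calsequestrin holds it at high concentration close to the release channel. Fast fibres mainly use the pump of Atp2a1 and the calsequestrin of Casq1, slow fibres and heart use that of Atp2a2 and also Casq2, and the diaphragm holds both kinds of fibre.

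Promoter sequences are given here for 4 of the members whose levels are described, so that the start of each gene can be set beside its values. RefSeq sequences (GRCm38.p6) were matched for 5 of the 7 genes: Cacna1s, Ryr1, Atp2a1, Casq1 and Casq2. The other two are Cacng1 and Atp2a2. Each window is the 250 bases before the annotated start, 5′ to 3′ on the gene's own strand: chr1:136052561-136052810 on the plus strand for Cacna1s, chr7:29125152-29125401 on the minus strand for Ryr1, chr7:126463074-126463323 on the minus strand for Atp2a1 and chr1:172219896-172220145 on the minus strand for Casq1. Capitals mark each match to the E-box CANNTG, the site bound by the myogenic factors of the MyoD family.
Cacna1s: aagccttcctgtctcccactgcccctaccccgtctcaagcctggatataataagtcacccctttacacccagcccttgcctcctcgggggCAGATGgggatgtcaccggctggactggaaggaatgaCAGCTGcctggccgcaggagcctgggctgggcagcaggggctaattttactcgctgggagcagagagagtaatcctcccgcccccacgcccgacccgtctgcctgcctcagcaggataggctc
Ryr1: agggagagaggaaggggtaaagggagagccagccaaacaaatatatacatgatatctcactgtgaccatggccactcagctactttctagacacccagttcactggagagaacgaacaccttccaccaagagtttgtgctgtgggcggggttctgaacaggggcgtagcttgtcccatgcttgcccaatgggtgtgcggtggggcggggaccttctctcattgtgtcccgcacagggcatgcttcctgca
Atp2a1: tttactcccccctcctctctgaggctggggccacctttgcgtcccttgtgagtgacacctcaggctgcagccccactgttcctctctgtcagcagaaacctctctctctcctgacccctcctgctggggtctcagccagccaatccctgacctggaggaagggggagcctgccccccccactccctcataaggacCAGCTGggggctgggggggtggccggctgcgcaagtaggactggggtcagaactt
Casq1: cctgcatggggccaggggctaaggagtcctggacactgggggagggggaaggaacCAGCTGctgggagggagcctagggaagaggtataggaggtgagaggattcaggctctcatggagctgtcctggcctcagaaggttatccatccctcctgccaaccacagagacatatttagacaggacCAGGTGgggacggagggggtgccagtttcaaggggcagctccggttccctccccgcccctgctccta

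The Cacna1s window held E-boxes CAGATG 160 bases and CAGCTG 123 bases before the start, Casq1 held CAGCTG at 195 and CAGGTG at 67, and Atp2a1 held CAGCTG at 55; the Ryr1 window held no match. Casq2 (chr3:102086165-102086414, plus strand, not printed) held CACTTG at 200 and CAACTG at 52. Of 32851 mouse promoter windows of the same length, 66.2% held at least 1 E-box and 31.8% at least 2, so such matches are common. An MCAT match (CATTCC, or GGAATG on the other strand) was found in Cacna1s, 130 bases before the start, and in 12.6% of all windows; it lies beside the E-box at 123 without overlapping it. A MEF2 match was found in Casq2, 69 bases before the start, and in 1.69% of all windows. GC boxes (GGGCGG or CCGCCC) stood in Cacna1s at 46, in Ryr1 at 108 and 49 and in Casq1 at 15, and in 32.7% of all windows. No window of the 5 held TATAAA (7.59% of all) or a CArG box (1.47%). Both strands were searched for every motif except TATAAA, which was searched on the gene's own strand only. A match is a description of the letters only.

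The deposited values were intensities already brought to a common level: after trimming below percentile 2 and above percentile 98, the mean of an array was 1499.2 to 1499.7 on every array. All 8 member probe sets were among the 9291 that passed the filter on low values, a signal above 374.5 on at least 3 arrays. Within a group, arrays correlated at 0.884 or more. Dmd was lower in mdx than in control arrays by a mean of 1.01 on the log2 scale (limma, adjusted p = 2.22e-07), the direction that the labels give. Fast and slow muscle genes were bright on all arrays (summed signal of 9 fast genes 103204.7 to 341336.6, and of 6 slow genes 62108.1 to 208185.4), while 5 heart muscle genes together gave 935.7 to 3478.3. Of these 5, 3 passed the filter: Nppa gave 413.7 to 2182, Nppb 22.6 to 700.3 and Tnni3 157 to 721.5. Myh6, the heart myosin, gave 20.1 to 330.8, below the filter signal, and Myl7 54.7 to 424.6. The liver gene Alb was above 10000 on 9 arrays of 36. These include control replicates 2 and 3 of 14 days and of 112 days. Without the 9 arrays only control replicate 1 was left at each of these ages. Results so obtained at or across these ages rest in part on that single array. The ratio of the Gapdh control signals (3′ end over 5′ end), a common check of RNA, ran from 0.0357 to 0.971, so the 3′ probe set was the dimmer one on every array. Below, a difference is mdx minus control on the log2(value + 32) scale, which understates the change of dim genes; a change is called at an adjusted p under 0.05 in limma, with Benjamini-Hochberg adjustment over all 9291 probe sets. Because each array holds RNA of whole muscle, fewer cells of a type and less RNA per cell cannot be told apart.

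Across the ages, the number of member probe sets called between genotypes was 1 of 8 at 7 days, 0 at 14 days, 0 at 23 days, 1 at 28 days, 4 at 56 days and 2 at 112 days. Among all probe sets tested, 0.463% were called at 7 days, 0.194% at 14 days, 3.49% at 23 days, 2.96% at 28 days, 16.7% at 56 days and 12.2% at 112 days. Of the 8 members, 2 at 14 days and 3 at 23 days had an unadjusted p under 0.05, against 6.55% and 14.1% of all probe sets. At 56 days 3 of the 4 calls were falls (Cacna1s, Ryr1 and Atp2a2) and 1 was a rise (Cacng1), and the median difference of the 8 was -0.63 against 0.15 over all probe sets. At 112 days Cacna1s was lower and Cacng1 higher, with a member median of -0.17 against 0.02. The 3 mdx arrays lay wholly above or below the 3 control arrays for 4 member probe sets at 7 days (15.4% of all probe sets), 3 at 14 days (12.9%), 3 at 23 days (22.9%), 1 at 28 days (21.5%), 5 at 56 days (36.9%) and 2 at 112 days (23.5%). The 4 at 7 days were those of Cacng1 and Casq1 and both probe sets of Atp2a1.

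**Figure D1:**
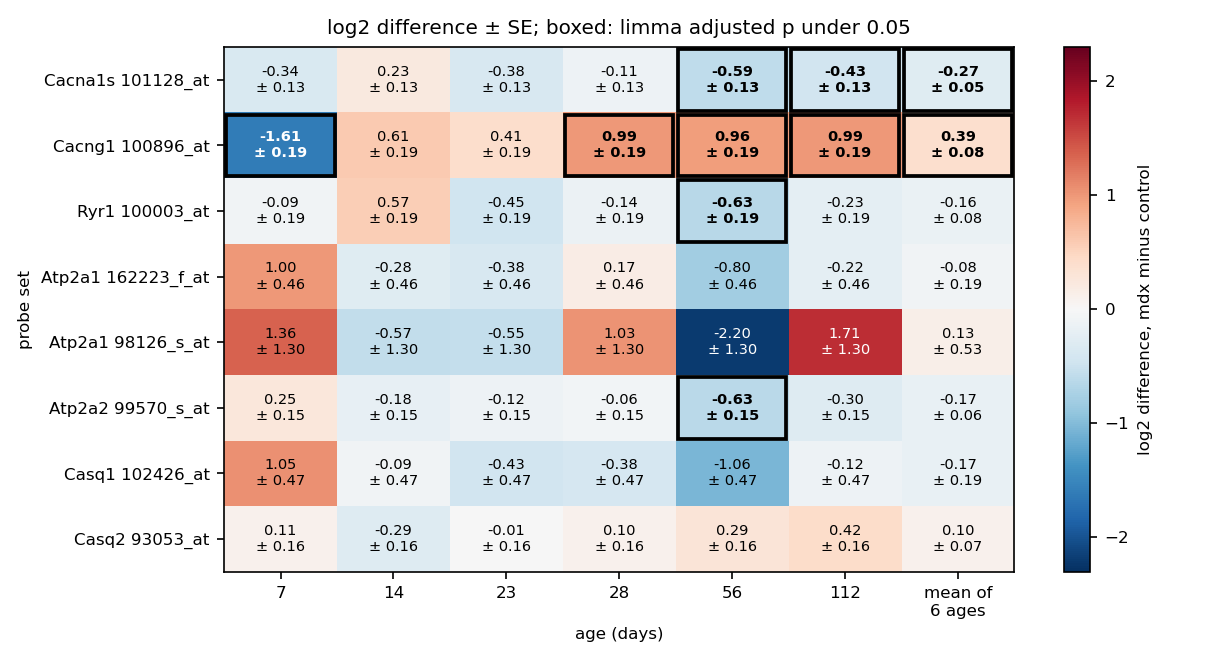
Difference mdx minus control of each member probe set at each age, on the log2(value + 32) scale, as a grid of colours with each value ± SE printed in its cell; boxed cells are called at an adjusted p under 0.05 in limma. Cacng1 was lower by 1.61 at 7 days and higher by 0.99 at 112 days, while Cacna1s, Ryr1 and Atp2a2 lay at -0.59, -0.63 and -0.63 at 56 days.

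Cacng1, the gamma subunit of the muscle voltage-gated calcium channel, differed between genotypes at 4 of the 6 ages, lower in mdx at 7 days and higher from 28 days on. Its signal in the 7-day controls was 10672, 12528 and 9570 in replicates 1 to 3, the order used below, and in 7-day mdx arrays 2710.4, 3686 and 4463. All 7-day control arrays lay above all mdx arrays, and the level was 3.04-fold lower in mdx (-1.61 ± 0.19 (SE), n = 3 per group, limma adjusted p = 7.58e-06). It was the probe set with the second lowest p at that age among all tested. From 14 days on the order was turned: controls gave 1797, 1500 and 1597 at 14 days and mdx arrays 2212, 2884 and 2433, which did not overlap but were not called (0.61, adjusted p = 0.344). At 23 days the groups overlapped, with 2692, 2840.3 and 2024 in controls and 2789, 3523 and 3698 in mdx (0.41, adjusted p = 0.311).

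From 28 days on every Cacng1 value in mdx was above every control value of the same age, and the rise was called each time. The 28-day controls gave 2215, 2277 and 2561 and mdx 4356, 4278 and 5557, 1.99-fold higher (0.99 ± 0.19 (SE), adjusted p = 0.00114). The 56-day controls gave 1968, 2138 and 2018 and mdx 5715, 3010 and 3699.9, 1.94-fold higher (0.96, adjusted p = 0.000631). The 112-day controls gave 2868, 2155 and 2077 and mdx 4409.8, 4936 and 4746, 1.99-fold higher (0.99, adjusted p = 0.000413). Over these 3 ages the controls lay between 1968 and 2868 and the mdx arrays at 3010 or more. The difference of Cacng1 kept its sign at each of these ages with quantile normalization and when each array was set relative to its fast muscle genes, but with the latter scaling it was called only at 56 days (1.63, adjusted p = 0.00601, against 0.165 at 7 days, 0.257 at 28 days and 0.371 at 112 days). The mean of the fast muscle genes itself had a within-group SD of 0.415 log2, so a call lost with this scaling can be a loss of precision. At 112 days it took the calls over all probe sets from 1131 to 144, with medians of 0.015 and 0.013. Without the 9 arrays of high Alb the difference was 0.67 at 112 days, with only control replicate 1, the highest of its group, left there. The differences of -1.50 at 7 days (adjusted p = 0.00573) and 0.93 at 56 days (0.00565) stayed called. Within the 6 arrays of 7 days alone the fall had an adjusted p of 0.132.

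The change of Cacng1 with age ran differently in the genotypes. In controls the level fell from a mean of 10923 ± 1495 (SD, n = 3) at 7 days to 1631 ± 151 at 14 days, and at 112 days it was 4.59-fold lower than at 7 days (-2.20 ± 0.19 (SE), adjusted p = 1.77e-10; 41.7% of all probe sets were called in this comparison). The 7-day controls stood apart above all other control groups, the 14-day controls apart below, and between them the 56-, 28-, 112- and 23-day controls rose in mean in that order and overlapped, except 56 with 28 days. In mdx the means rose in the order 14, 23, 7, 56, 112 and 28 days with each neighbouring pair overlapping, and 112 minus 7 days was 0.40 (adjusted p = 0.151; 17.4% of all called). The difference between these age changes was 2.60 ± 0.27 (SE) in limma (adjusted p = 6.76e-08, 9.85% of all called), and the difference between genotypes depended on age (F = 28.5, adjusted p = 7.26e-08; 8.93% of all called). This dependence stayed called relative to the fast muscle genes (F = 7.99, adjusted p = 0.00137) and without the arrays of high Alb (F = 16.9, adjusted p = 0.000342). Because the sign turned between 7 and 14 days, the mean over the 6 ages, 0.39 ± 0.08 (SE) (adjusted p = 0.00036; 17.8% of all called), describes no single age.

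Cacna1s encodes the pore of the same channel, which is the voltage sensor of the tubule membrane, and it was lower in mdx at the late ages. At 56 days the controls gave 15599, 14845 and 12005 and the mdx arrays 9343, 8759.8 and 9951. The groups did not overlap, and Cacna1s was 1.5-fold lower in mdx (-0.59 ± 0.13 (SE), n = 3 per group, limma adjusted p = 0.00167). With quantile normalization this difference was -0.33 and was not called (adjusted p = 0.0652), and relative to the fast muscle genes it turned to 0.08. The 112-day controls lay within a narrow range, 13199.7, 12972 and 13111, and all mdx arrays lay below them at 10182, 10154 and 8809, 1.35-fold lower (-0.43, adjusted p = 0.0212). Leaving out control replicate 1 (adjusted p = 0.0562), control replicate 2 (0.0503) or mdx replicate 3 (0.108) ended the 112-day call, as did array weights (0.0623), a fit to the 6 arrays of that age alone (0.155) and scaling to the fast muscle genes (-0.43, 0.933). Without the arrays of high Alb the differences were -0.51 at 56 days (adjusted p = 0.0129) and -0.48 at 112 days, where only control replicate 1 was left.

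At the early ages Cacna1s showed both signs. The 7-day values were 10087, 11121 and 9021 in controls and 6267, 9091 and 8649 in mdx, which overlapped (-0.34, adjusted p = 0.297). At 14 days all mdx arrays, 8895, 8682 and 8187, lay above the controls, 6763, 7316 and 7908 (0.23, adjusted p = 0.839). At 23 days all mdx arrays, 11799.5, 14159.6 and 11155, lay below the controls, 16532, 16528 and 14971 (-0.38, adjusted p = 0.111). Neither of these separations passed the test over all probe sets. The 28-day groups overlapped, with 14278, 14994 and 13604 in controls and 14312, 12863 and 12451 in mdx (-0.11, adjusted p = 0.819). The dependence of the difference on age was called (F = 5.17, adjusted p = 0.0252), but not without 14-day control replicate 1 or 2 or 14-day mdx replicate 1 or 2, each left out in turn (F = 3.93 to 4.37), nor without the arrays of high Alb (F = 4.13, adjusted p = 0.106), with quantile normalization (3.30, 0.112) or relative to the fast muscle genes (0.878, 0.827). Over the 6 ages the mean difference was -0.27 ± 0.05 (SE) (n = 18 per genotype, limma adjusted p = 0.000263), which became 0.004 relative to the fast muscle genes.

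Cacna1s in controls was lowest at 14 days (7329 ± 572, SD), next at 7 days (10076 ± 1049.8), and higher at 112, 56, 28 and 23 days, groups that overlapped their neighbours and reached 16011 ± 900. The 14-day and the 7-day controls each stood apart from the next group. In mdx the 7-, 14-, 56- and 112-day groups overlapped in turn, from 8002 ± 1519 to 9715 ± 785, and lay below the 23- and 28-day groups (12371 ± 1582 and 13209 ± 977). The 112-day controls were above the 7-day controls by 0.38 ± 0.13 (SE) (adjusted p = 0.0172). This difference turned to -0.24 relative to the fast muscle genes and was not called with the Gapdh ratio in the model (0.32, adjusted p = 0.166). Without the arrays of high Alb it was 0.32, with only control replicate 1 left at 112 days. In mdx the same span gave 0.29 (adjusted p = 0.115). Within each array the difference of Cacna1s minus Cacng1, averaged over the ages, was lower in mdx by 0.66 log2 (permutation test of genotype labels within ages, 100000 resamples, two-sided, p = 0.00211, 0.00633 after Benjamini-Hochberg adjustment over 3 pairs; 18 arrays per genotype). By age this value was 1.26 at 7 days, then -0.38, -0.78, -1.11, -1.55 and -1.43, positive at 7 days and negative at every later age. Without the arrays of high Alb it was -0.56 with an adjusted p of 0.0794.

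**Figure D2:**
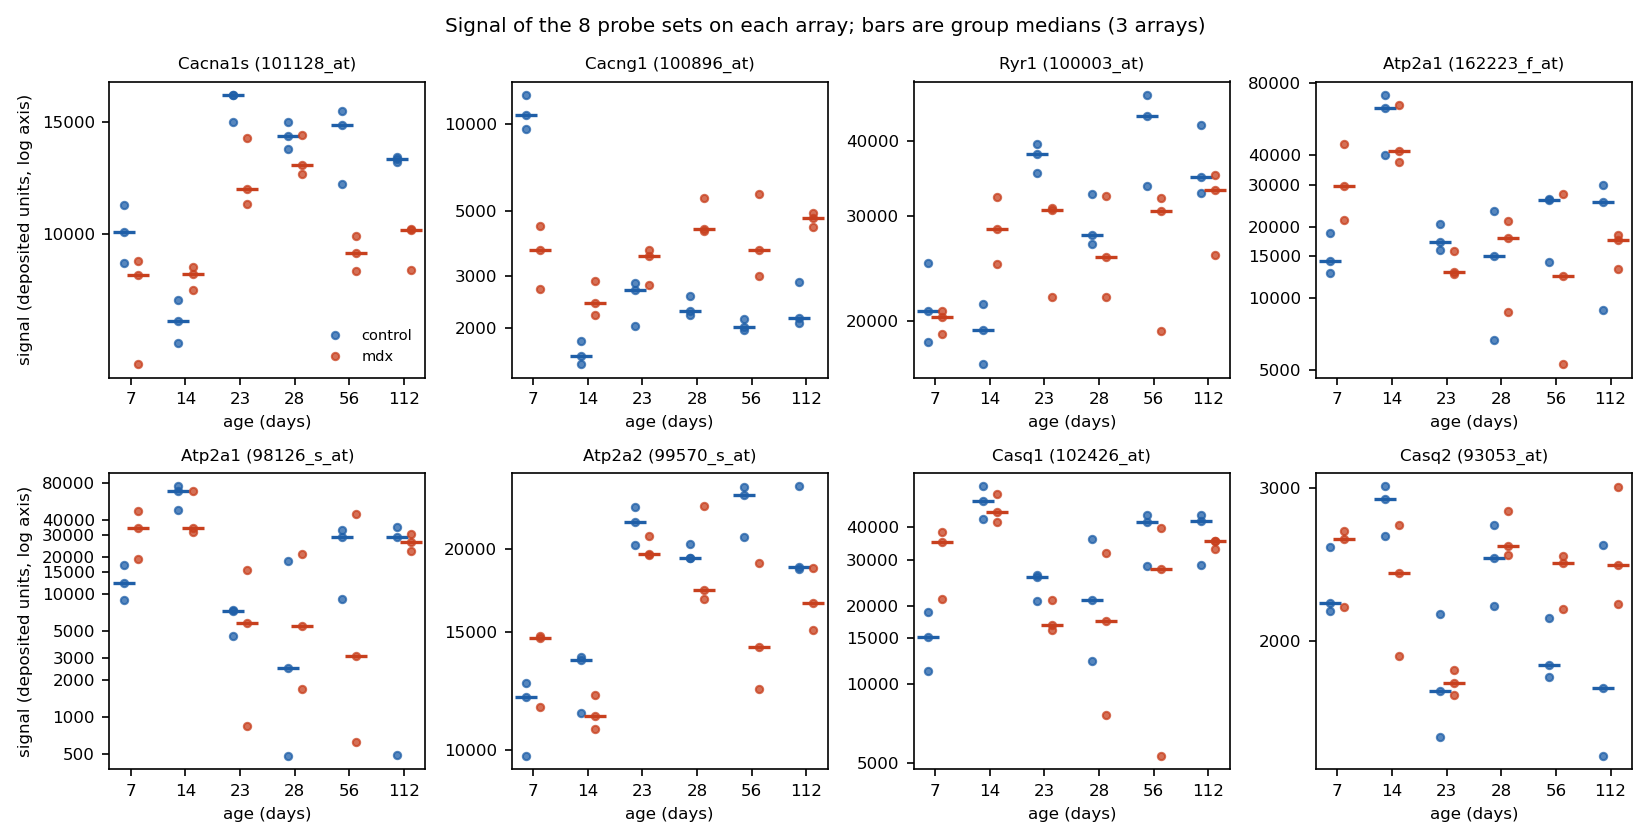
Deposited signal of each member probe set by age on a log axis, with 1 point per array for control and mdx mice and bars at the group medians. The 7-day controls of Cacng1 lie between 9570 and 12528, above all other groups, and the points of Atp2a1 by the _s_at probe set spread from 481.7 to 75253.3.

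Ryr1, the calcium release channel of the reticulum, was lower in mdx at 56 days, a call that rested on single arrays and on the scaling. The 56-day controls gave 43968, 47759.7 and 33683 and mdx 19262, 32109 and 30597. The groups did not overlap, and the level was 1.55-fold lower in mdx (-0.63 ± 0.19 (SE), limma adjusted p = 0.0199). Leaving out control replicate 1 ended the call (-0.59, adjusted p = 0.0757), as did leaving out control replicate 2 (-0.53, 0.108), mdx replicate 1 (-0.40, 0.176) or the arrays of high Alb (-0.59, 0.0945). With quantile normalization the difference was -0.07 (adjusted p = 0.847), and relative to the fast muscle genes it turned to 0.04. At 112 days the groups overlapped, with 34890.5, 32716 and 42582 in controls and 35153, 25842 and 33191 in mdx (-0.23, adjusted p = 0.489).

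As for Cacna1s, the signs of Ryr1 at 14 and 23 days were opposite. At 14 days all mdx arrays, 32283, 28495 and 24949, were above the controls, 21346, 16956 and 19349.5 (0.57, adjusted p = 0.399). At 23 days all mdx arrays, 30916, 30646 and 21929, were below the controls, 38047, 39482 and 35339 (-0.45, adjusted p = 0.246). Neither difference was called. The 7-day groups (25025, 18442 and 20838 in controls, 19075, 20328 and 20774 in mdx) and the 28-day groups (27828, 26930.4 and 32567 and 32406, 25562 and 21954) overlapped, with differences of -0.09 and -0.14. The dependence on age was called (F = 4.73, adjusted p = 0.0355) and was lost when any 1 of 9 arrays was left out (F = 3.51 to 4.52), without the arrays of high Alb (2.08, 0.375), with quantile normalization (2.26, 0.260) and relative to the fast muscle genes (1.18, 0.799). The mean over ages, -0.16 ± 0.08 (SE), was not called (adjusted p = 0.161).

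Ryr1 was higher at 112 than at 7 days in both genotypes. From 7 to 112 days it gained 0.78 ± 0.19 (SE) in controls (adjusted p = 0.00166) and 0.63 ± 0.19 (SE) in mdx (adjusted p = 0.0182), the one member called in mdx over this span. The mdx call was lost without 112-day mdx replicate 1 (adjusted p = 0.0747) or replicate 3 (0.0716). The gain in controls was 0.16 relative to the fast muscle genes (adjusted p = 0.759) and 0.40 with the Gapdh ratio in the model (0.203), and was called in neither. Without the arrays of high Alb it was 0.70, with only control replicate 1 left at 112 days. The gain in mdx was 0.03 relative to the fast muscle genes (adjusted p = 0.949) and 0.53 with array weights (0.0513), and was called in neither. In controls the 14- and 7-day groups lay lowest and overlapped, the 28-day group stood apart above them, and the 112-, 23- and 56-day groups overlapped at the top, up to 41803 ± 7284 (SD, n = 3). In mdx the 7-day group had the lowest mean (20059 ± 881) and overlapped the 56-day group and no other, and the later groups, from 26641 ± 5309 at 28 days to 31395 ± 4908 at 112 days, all overlapped each other.

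The calcium pumps were followed with Atp2a2, the slow-fibre and heart pump, and Atp2a1, the pump of fast fibres. Atp2a2 was lower in mdx at 56 days: controls gave 20835, 24738 and 24036 and mdx 12345, 14236 and 19043. The groups did not overlap, and the level was 1.55-fold lower (-0.63 ± 0.15 (SE), limma adjusted p = 0.00454). With quantile normalization the difference was -0.20 (adjusted p = 0.358), and relative to the fast muscle genes it turned to 0.04; within the 6 arrays of that age alone the adjusted p was 0.0903. At 112 days mdx arrays gave 18724, 16569 and 15116 and controls 18802, 18656 and 24781, which overlapped (-0.30, adjusted p = 0.223). The other ages overlapped too, with differences of 0.25 at 7 days, -0.18 at 14 days, -0.12 at 23 days and -0.06 at 28 days, and the mean over ages was -0.17 ± 0.06 (SE) (adjusted p = 0.0542).

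Atp2a2 rose between the early and later ages in controls. Its 7-day controls gave 12009.5, 9809.9 and 12608 and its 14-day controls 13625, 11365 and 13788, groups that overlapped and lay below all control arrays of 23 days or older. From 7 to 112 days the controls gained 0.85 ± 0.15 (SE) (adjusted p = 6.04e-05), a gain of 0.23 and not called relative to the fast muscle genes (adjusted p = 0.677), against 0.30 in mdx (adjusted p = 0.193); the difference between these changes, -0.55, was not called (adjusted p = 0.106). In mdx every neighbouring pair of groups overlapped, in the rising order 14, 7, 56, 112, 28 and 23 days (11349.9 ± 678 to 20050.5 ± 741, SD).

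Atp2a1 and Casq1 varied most between arrays of a group among the members, and no difference of Atp2a1 between genotypes was called. The within-group SD was 0.624 log2 by the _f_at probe set and 1.79 by the _s_at probe set, against 0.142 for Cacna1s, 0.179 for Atp2a2, 0.193 for Casq2, 0.23 for Ryr1, 0.239 for Cacng1 and 0.632 for Casq1. By the _s_at probe set, arrays of a single group differed by up to 72.6-fold: the 112-day controls gave 35179.8, 484.6 and 28939, the 56-day mdx arrays 616.8, 44696 and 3136 and the 28-day controls 18419.6, 2482 and 481.7. At 7 days all mdx arrays were above all controls with both probe sets: 18819.7, 12838 and 14378 against 44322, 21320.2 and 29736 by the _f_at probe set, and 17206, 8908 and 12214 against 47302, 19434 and 34286 by the _s_at probe set. The differences were 1.00 ± 0.46 (SE) (limma adjusted p = 0.438) and 1.36 ± 1.30 (SE) (adjusted p = 0.745), and with the Gapdh ratio in the model they turned to -0.32 and -2.20. At 56 days the groups overlapped (25979, 26219 and 14145 in controls and 5299.8, 27449 and 12459 in mdx by the _f_at probe set; -0.80, adjusted p = 0.231, and -2.20, adjusted p = 0.244, by the _s_at probe set). Without mdx replicate 2 of that age both were called as lower (-1.38, adjusted p = 0.0447, and -3.86, 0.0476).

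The age course of Atp2a1 was led by 14 days, an age at which the Gapdh ratios, given below, were also high. By the _f_at probe set the 14-day controls, 71361, 39848 and 63040.2, stood above all other control groups, and in mdx the 14-day group, 37259, 41413 and 65026, had the highest mean and overlapped the 7-day group and no other. By the _s_at probe set the 14-day controls were likewise the brightest control group at 75253, 48270.5 and 69347. The change over the 6 ages was called by the _f_at probe set in both genotypes and by the _s_at probe set in neither (adjusted p = 0.0557 in controls and 0.0617 in mdx). From 23 days on, the group means by the _f_at probe set lay between 13821 ± 1781 (mdx at 23 days, SD, n = 3) and 22114 ± 6903 (controls at 56 days). The genotypes did not overlap at 23 days by this probe set, with 17265, 20580.4 and 15978 in controls and 15875, 12710.1 and 12877 in mdx (-0.38, adjusted p = 0.815). The difference at 112 days was -0.22 by the _f_at probe set and 1.71 by the _s_at probe set, opposite in sign and neither called. Of all members, 7 of the 8 probe sets changed over the ages in controls (62.4% of all probe sets did) and 6 of the 8 in mdx (55%); Ryr1 was the other one not called in mdx (adjusted p = 0.0803). Within arrays, Atp2a1 minus Atp2a2 differed between genotypes by 0.09 log2 on average (permutation p = 0.66).

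Casq1, the calsequestrin of fast fibres, spread widely between arrays like Atp2a1, and no difference between genotypes was called at any age. At 7 days the controls gave 18859.7, 11289.7 and 15124 and all mdx arrays lay above them at 38478, 21159.7 and 35018 (1.05 ± 0.47 (SE), limma adjusted p = 0.42); with the Gapdh ratio in the model the difference was -0.21. At 56 days the arrays were 41917, 44629 and 28325 in controls and 5324, 39829 and 27599 in mdx, where replicate 1 was far below the others (-1.06, adjusted p = 0.118). Without mdx replicate 2 the 56-day fall was -1.63 (adjusted p = 0.021). At 112 days the groups overlapped (44444, 28681 and 42144 and 35365, 35588 and 33139; -0.12, adjusted p = 0.911). The differences at 14, 23 and 28 days were -0.09, -0.43 and -0.38, and the mean over ages was -0.17 ± 0.19 (SE) (adjusted p = 0.601).

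With age, Casq1 in controls rose in mean from 15091 ± 3785 (SD, n = 3) at 7 days through 28, 23, 56 and 112 days to 50345 ± 7144 at 14 days. The 7- and 23-day groups lay below the 56-, 112- and 14-day groups, while the 28-day group overlapped all but the 14-day one. In mdx the 14-day group (47252 ± 5978) stood above all others. Controls gained 1.35 ± 0.47 (SE) from 7 to 112 days (adjusted p = 0.0218), but the gain was not called without 7-day control replicate 2 (adjusted p = 0.081) or 112-day control replicate 1 (0.0711) or 3 (0.0553), and with the Gapdh ratio in the model it turned to -0.05.

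Casq2, the calsequestrin of heart and slow fibres, was not called between genotypes at any age. At 56 days all mdx arrays, 2460, 2175 and 2508, lay above the controls, 1874, 1814 and 2123 (0.29 ± 0.16 (SE), limma adjusted p = 0.207). At 112 days the controls gave 1473, 2583 and 1764 and mdx 2205, 2448 and 3009 (0.42, adjusted p = 0.0885). Control replicate 2 at 112 days was above its group, and without it the difference was 0.64 and called (adjusted p = 0.0071). This array is 1 of the 9 with high Alb. Without all of them the difference was 0.79, with only control replicate 1, the lowest of its group, left at 112 days. The differences at the other ages were 0.11, -0.29, -0.01 and 0.10 at 7, 14, 23 and 28 days, and over all ages 0.10 ± 0.07 (SE) (adjusted p = 0.32). In controls the means rose from 1815 ± 304 (SD) at 23 days through 56, 112, 7 and 28 days to 2858 ± 192 at 14 days, with the 112-day group overlapping its neighbours on both sides. In mdx the 23-day group (1789 ± 59.1) lay below all others. Within arrays, Casq1 minus Casq2 differed between genotypes by -0.27 log2 on average (permutation p = 0.291, adjusted over 3 pairs 0.437), from 0.94 at 7 days to -1.35 at 56 days.

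The Gapdh ratio (3′ end over 5′ end) moved with the members that spread most; what it stands for in these arrays was not tested. Across the 36 arrays, taken as deviations from the group means, its log2 value correlated with Atp2a1 by the _f_at probe set (r = 0.66, rho = 0.72; permutation within groups, adjusted p = 0.0161 and 0.00099 over 9 relations, chosen after the data were seen), with its _s_at probe set (r = 0.62, rho = 0.75; adjusted permutation p = 0.0161 and 0.00099) and with Casq1 (r = 0.62, rho = 0.65; adjusted permutation p = 0.0707 and 0.0047). After leaving out the 2 arrays of most extreme ratio, r was 0.60, 0.52 and 0.47. The relation of Ryr1 was weaker (r = 0.46, rho = 0.43, adjusted permutation p = 0.0929 and 0.0667), that of Casq2 was negative (r = -0.33, rho = -0.41, adjusted permutation p = 0.0322 and 0.0403), and Cacna1s, Cacng1 and Atp2a2 gave r of 0.12, -0.22 and 0.06. The mean of the fast muscle genes, which are no members, gave r = 0.60 and rho = 0.68. The 7-day controls had ratios of 0.147, 0.0555 and 0.0357 against 0.83, 0.32 and 0.704 in 7-day mdx arrays, without overlap, as for Atp2a1 and Casq1 at that age. Atp2a1 and Casq1 had their highest group means at 14 days in both genotypes. The ratios there were 0.831, 0.694 and 0.971 in controls and 0.654, 0.942 and 0.872 in mdx. Alb was above 10000 on control replicates 2 and 3 and mdx replicate 3 of that age. The part of the ratio in these 14-day levels was not tested. The 56-day controls had 0.761, 0.542 and 0.152 and the mdx arrays 0.198, 0.888 and 0.128, and mdx replicate 2 was the array with the brightest Atp2a1 and Casq1 of its group. With the ratio in the model the 56-day falls of Cacna1s, Ryr1 and Atp2a2 were -0.58, -0.58 and -0.62 and stayed called.

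**Figure D3:**
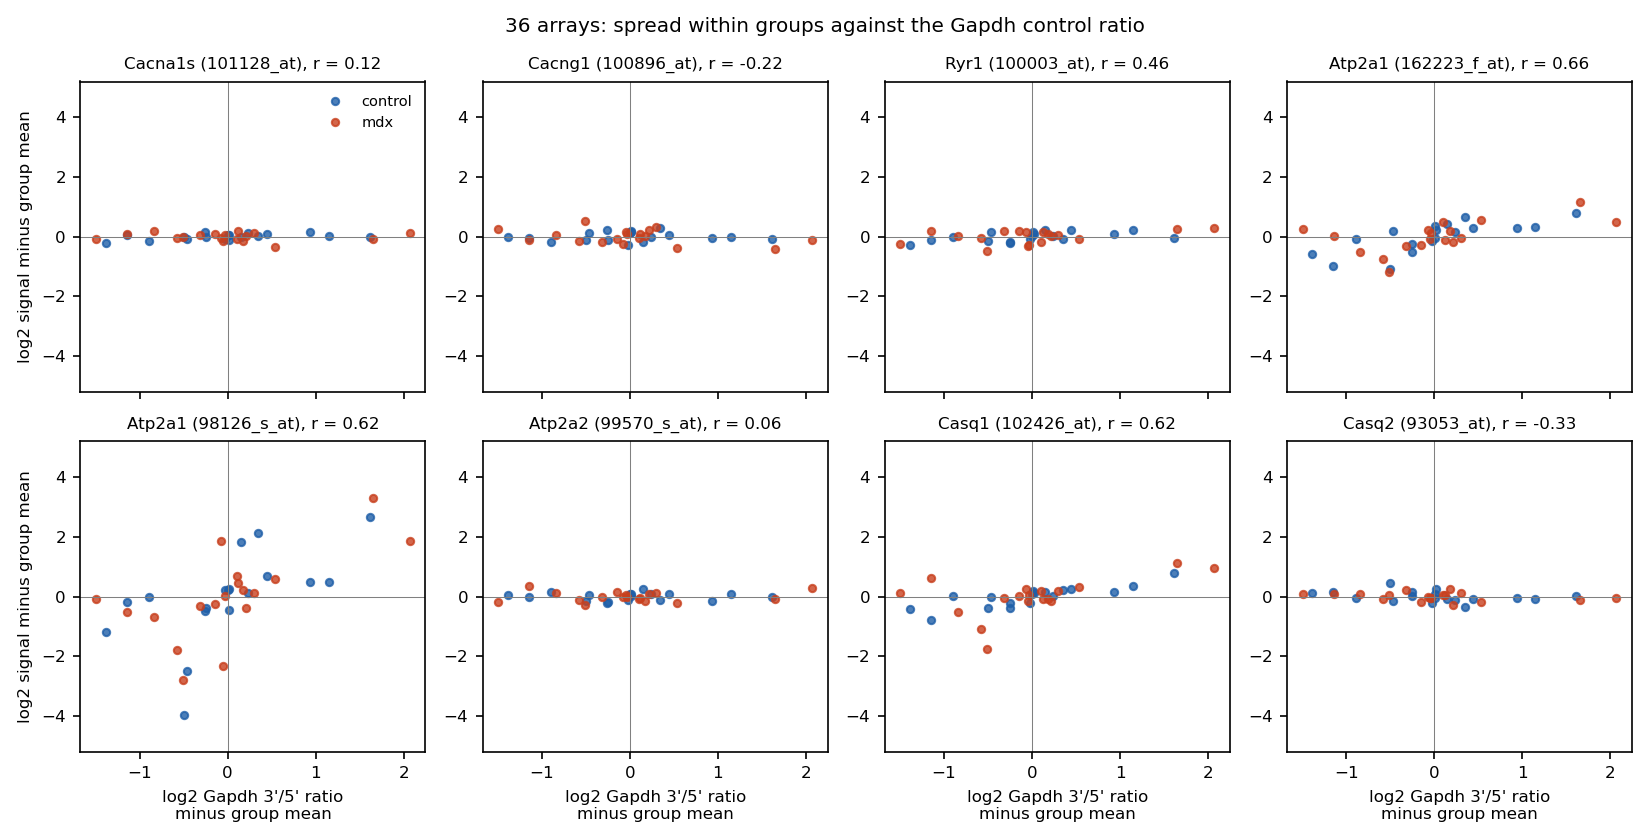
Deviation of log2(value + 32) from the group mean against the deviation of the log2 Gapdh ratio (3′ end over 5′ end) from its group mean, 1 point per array (36 arrays), for the member probe sets. The points of Atp2a1 rise with the ratio (r = 0.66 and 0.62) and those of Atp2a2 do not (r = 0.06).

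The 56-day falls stood beside changes of whole marker lists. At that age 2 of 9 fast muscle genes fell (Actn3 by 0.99 and Pygm by 0.92 on the log2 scale; list median -0.68) and 5 of 6 slow muscle genes fell (list median -0.79), against 7.38% of all probe sets called lower. The summed signal of the fast genes ran from 207548 to 303077 on control arrays and from 103204.7 to 236616 on mdx arrays, and that of the slow genes from 153647.5 to 204297 and from 62108.1 to 164057.9. All 5 genes of immature muscle (median 3.81) and all 7 macrophage genes (median 1.65) rose, where 9.27% of all probe sets did. By scaling to the fast genes, Cacna1s, Ryr1 and Atp2a2 lay between 0.04 and 0.08, as given above, while the median of all probe sets went from 0.15 to 0.82. At 112 days, where Cacna1s was lower and Cacng1 higher, 0 of 9 fast genes was called (median -0.01) and 1 of 6 slow genes (Myl3, -1.12), and again all 5 immature and all 7 macrophage genes rose (medians 3.83 and 1.83). Of all 9291 probe sets, 711 were called higher and 420 lower at that age. Of other cell types, fibroblast genes rose in 2 of 5 cases at 56 days (median 0.19) and in 3 of 5 at 112 days (median 1.503). Endothelial genes fell in 1 of 4 (median -0.16) and in 2 of 4 (median -0.52). Fat genes fell in 1 of 2 (median -0.79) and in 0 of 2 (median -0.75). The 5 liver genes had medians of -2.13 at 56 days and -1.62 at 112 days, with 0 called at either age. The part of these cells and fibre types in the members' differences was not tested beyond this scaling.

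By the likeness of the course over the 12 group means of log2 values (Pearson r, a description over groups that share arrays and ages), the genes nearest to each member were as follows. Cacna1s was nearest to Cuedc1, Sar1b and 2610507B11Rik (each r = 0.97), and Cacng1 to Snx6 (0.93), Pja1 (0.91) and Nsmce1 (0.90). Ryr1 was nearest to Cd99l2 (0.96), Cipc (0.94) and Plpbp (0.93). Atp2a2 was nearest to Selenot (0.97), Oat (0.96) and Gfm1 (0.96), and Atp2a1 to Dcn (0.93), Rbfox2 (0.92) and Gata6 (0.91). Casq1 was nearest to Tpt1 (0.99), Atp5c1 (0.98) and Rps24 (0.98), and Casq2 to Ncam1 (0.94), Rap2b (0.89) and Prss32 (0.88). Among the members, Cacna1s and Atp2a2 ran most alike (r = 0.86, n = 12 groups), then Atp2a1 and Casq1 (0.81), Ryr1 and Atp2a2 (0.77) and Cacna1s and Ryr1 (0.76). Ryr1 ran opposite to Casq2 (-0.69) and Cacng1 opposite to Casq1 (-0.68), while the channel subunits Cacna1s and Cacng1 gave -0.11.

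The wider calcium handling list held 101 other genes, of which 60 were on the array and 50 were tested. In the mean over ages 5 rose and 3 fell (list median 0.02, all probe sets 0.03), 8 of 50 genes against the 17.8% of all probe sets called, so the share was near the background. Cav3, the caveolin of muscle membranes and tubules, rose by 0.44 ± 0.05 (SE, n = 18 per genotype, limma adjusted p = 1.04e-07), Pdia3, a folding enzyme of the reticulum lumen, by 0.39 (0.00034), Camk2d, a calcium-dependent kinase, by 0.81 (0.00121), Trpv2, a cation channel, by 0.72 (0.00157) and Rcn1, a calcium-binding protein of the lumen, by 0.22 (0.00742). Vdac3, a channel of the outer mitochondrial membrane, fell by 0.32 (adjusted p = 2.54e-05), Mtm1, the phosphatase myotubularin, by 0.32 (0.00804) and Ppp3cb, a catalytic subunit of calcineurin, by 0.31 (0.023). A further probe set of Mtm1 gave -0.12 and was not called (adjusted p = 0.163). The calls of Cav3, Pdia3, Camk2d and Trpv2 in the mean over ages were kept in every alternative run. Camk2d and Trpv2 were dim, however: their mean signals were 237 and 481, against 10282 for Cav3 and 4263 for Pdia3. That of Camk2d lay below the filter signal of 374.5. Relative to the fast muscle genes the falls were not called and lay between -0.05 and -0.03 (Vdac3 -0.05, Mtm1 -0.05, Ppp3cb -0.03), and without the arrays of high Alb Rcn1, Mtm1 and Ppp3cb were not called (adjusted p = 0.0693, 0.0900 and 0.0909).

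By age, 0 of the 50 genes was called in limma at 7 or 14 days (8 and 5 at an unadjusted p under 0.05, against 10.7% and 6.55% of all probe sets), 1 at 23 days (Trpv2, 1.40, adjusted p = 0.0438) and 1 at 28 days (Pdia3, 0.77, adjusted p = 0.0162). At 56 days 6 rose and 4 fell (list median 0.16 against 0.15 over all), led by Vdac3 (-0.84, adjusted p = 2.85e-05), Cav3 (0.69, 0.000218) and Atp2b2, a calcium pump of the surface membrane (1.63, 0.00776). Atp2b2 was dim, with a mean signal of 183 over all arrays, below the filter signal of 374.5. At 112 days 6 rose and 1 fell (list median -0.06 against 0.02), led by Cav3 (0.90, adjusted p = 5.21e-06), Vdac3 (-0.56, 0.00277) and Mef2c, a transcription factor of muscle (0.75, 0.0119). The parvalbumin gene Pvalb, a calcium buffer of fast fibres, fell by 1.74 at 56 days by its brighter probe set (adjusted p = 0.0334) and was chosen after its value was seen. In the mean over ages this probe set gave -0.17 (adjusted p = 0.686) and a dimmer one, of the _f_at kind, -1.50 (1.38e-12), so the probe sets disagree. Leaving out 1 array of that age ended the 56-day call in 3 cases: -1.68 for control replicate 1, -1.56 for control replicate 2 and -0.84 for mdx replicate 1 (adjusted p = 0.0956, 0.121 and 0.324). Relative to the fast muscle genes Vdac3 was -0.16 at 56 days (adjusted p = 0.710), and at 112 days Cav3, Vdac3 and Mef2c kept their sign and were not called (adjusted p = 0.353, 0.804 and 0.604). Without the arrays of high Alb only control replicate 1 was left at 112 days, and Vdac3 and Mef2c were not called there. Single arrays ended some calls: Atp2b2 without 56-day control replicate 2 (1.32, adjusted p = 0.0648), Pdia3 at 28 days without control replicate 1 (0.67, 0.117), control replicate 3 (0.75, 0.0704) or mdx replicate 2 (0.63, 0.124), and Mef2c without 112-day control replicate 2 (0.68, 0.0565) or mdx replicate 2 (0.66, 0.0662). The 23-day call of Trpv2 was lost without any 1 of control replicates 1 and 2 and mdx replicates 1 and 2. The 10 and 7 of 50 genes called at 56 and 112 days stand against 16.7% and 12.2% of all probe sets, given above, which is near the background.

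**Figure D4:**
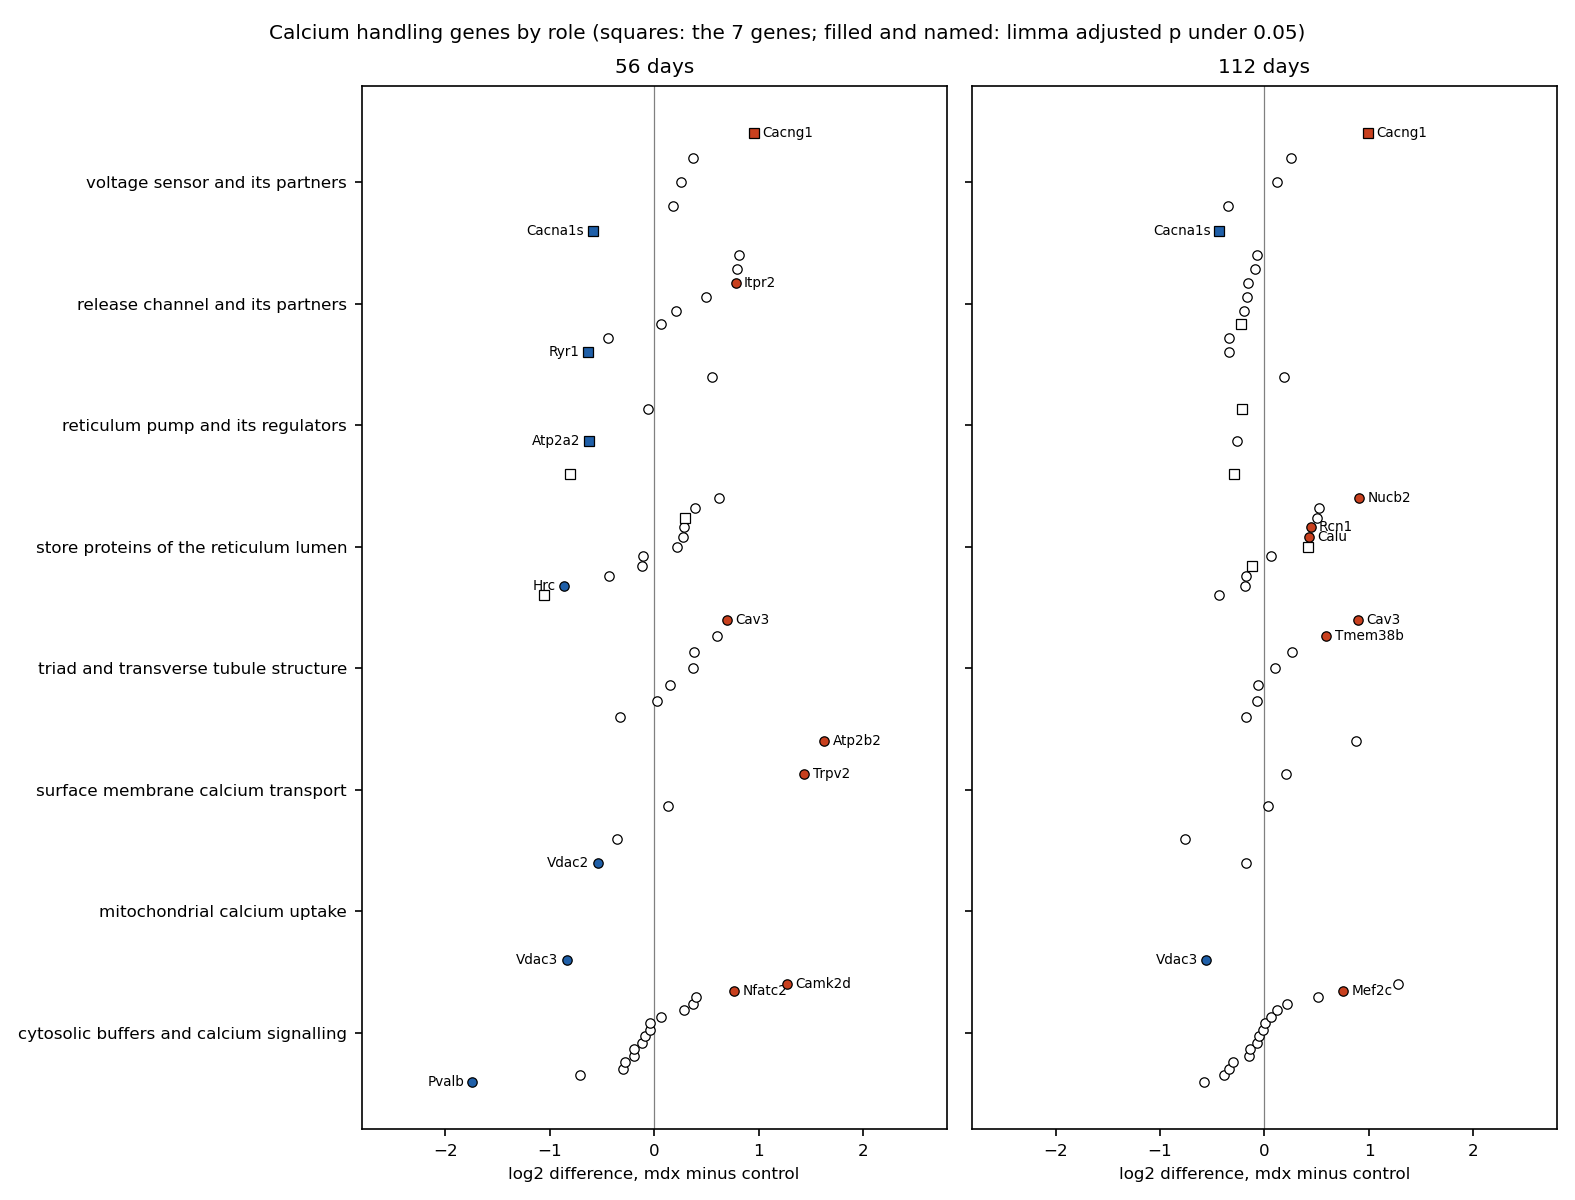
Differences mdx minus control at 56 and 112 days, on the log2(value + 32) scale, of the members and of the other calcium handling genes, grouped by role, with filled points and gene names for those called in limma. Cav3 lies at 0.69 and 0.90 and Vdac3 at -0.84 and -0.56; Itpr2, Hrc, Nfatc2, Vdac2, Tmem38b, Calu and Nucb2 are named in the picture because they were called.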

How the data were processed

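The study measured total RNA from mouse diaphragm on 36 1-colour arrays, and each array was placed in a group by its title. The deposited intensity of a probe set is linear and had been brought to a common level by the authors; per the labels the array maker's standard protocol was used. The scanning and summary software was not stated in the sources used here. Values were used as deposited, as log2(value + 32). A probe set entered the tests if its value passed percentile 40 of all values on at least 3 arrays; 66 control probe sets were left out. For arrays, the number of arrays limits precision.

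limma 3.58.1 in R 4.3.3 fitted 12 group means to all 36 arrays, with eBayes and a signal trend, 24 residual and 6.14 prior degrees of freedom, and Benjamini-Hochberg adjustment over 9291 probe sets. Within-array differences and the Gapdh relation were tested by permutation (100000 resamples, two-sided; scipy 1.17.1, numpy 2.4.6). Simulated data were made like the 56-day comparison over 9291 probe sets, with 50 probe sets changed at each size. Of those changed by 0.5, 1, 2 and 3 log2, 10%, 40%, 92% and 96% were found, and 5 of 124 calls were false. Fewer probe sets were changed there than the 1547 called in the data at 56 days, so these rates need not hold for the data.

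The members and lists were chosen with earlier results of these data known. Named were all member probe sets; of the calcium handling list the genes called in the mean over ages and, at each age, the 3 called with the lowest adjusted p; for each member the 3 genes of most similar course; and Dmd, Alb and muscle lists as checks. Genes were named from the platform annotation, where 10833 probe sets have 1 symbol and 1589 have several or none. Same-numbered arrays of the genotypes deviated together in 1 of 18 pairs (correlation over 0.1), so no pairing was used in the main fit. Alternatives were other pseudocounts, filters, scalings, array weights, covariates and arrays left out.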

Additional observations from a re-analysis of the deposited data

Results flagged for a closer look

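The difference between mdx and control arrays depended on age for 3 of the 8 member probe sets in limma's F test over the 6 ages, where 8.93% of all probe sets were called. Cacng1 gave F = 28.5 (adjusted p = 7.26e-08), with a fall at 7 days and rises from 28 days on. Cacna1s gave F = 5.17 (adjusted p = 0.0252) and Ryr1 F = 4.73 (adjusted p = 0.0355), each with mdx above control at 14 days and below it at 23 and 56 days. The change of Cacng1 from 7 to 112 days differed between the genotypes by 2.60 log2 (limma adjusted p = 6.76e-08). All groups hold 3 arrays, too few for a test of single outlying arrays.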

How the results depend on the processing

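Counts of called members follow the choice of scaling, as do the calls over all 9291 probe sets. Brackets give the latter, from the main run to the alternative. With quantile normalization 1 member was called at 56 days (1547 to 1321), 1 for the dependence on age (830 to 795) and 2 for mdx at 112 minus 7 days (1613 to 1703). The median of all probe sets at 56 days went from 0.15 to 0.00495 log2. Relative to the fast muscle genes that median was 0.82 and higher calls went from 55.7% to 98.3% of all calls. The members called were 0 at 7 (43 to 8), 28 (275 to 89) and 112 days (1131 to 144). They were 1 each at 56 days (1547 to 2058), in the mean over ages (1657 to 1460), for the dependence on age (830 to 108) and for controls at 112 minus 7 days (3872 to 2251). Cacna1s (0.08), Ryr1 (0.0398), Atp2a2 (0.0449) and Vdac2 (0.13) at 56 days, Cacna1s in the mean (0.0043) and Cacna1s in controls at 112 minus 7 days (-0.24) changed sign. Higher calls also went from 76.9% to 98.3% at 23 days, from 81.8% to 98.9% at 28 days, from 58.5% to 98.8% in the mean and from 51.3% to 6.26% for controls at 112 minus 7 days. With array weights the members called were 1 at 23 days (324 to 1293), 1 at 112 days (1131 to 950) and 0 for mdx at 112 minus 7 days (1613 to 1982). Without the 9 arrays of high Alb only control replicate 1 was left at 14 and at 112 days, and calls at or across these ages are not counted here. The within-array differences were -0.19 for Atp2a1 minus Atp2a2 and -0.56 for Cacna1s minus Cacng1. With the Gapdh ratio as covariate 3 members were called for controls at 112 minus 7 days (3872 to 2291), where Casq1 became -0.0500. Within the 6 arrays of an age alone, 0 were called at 7 days, 1 at 56 days and 1 at 112 days. For these fits the calls over all probe sets are not given here. The causes were not tested.

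Leaving out single arrays gave 3 to 7 called members at 56 days, 1 to 2 at 112 days, 1 to 4 for the dependence on age, 0 to 1 for mdx at 112 minus 7 days, 2 to 3 in the mean over ages, 4 to 6 for controls at 112 minus 7 days, 6 to 8 for the change over ages in controls and 4 to 7 in mdx, and -0.015 to 0.16 for Atp2a1 minus Atp2a2. Of 2304 member values so obtained, 2194 kept their direction and side of the threshold; 28 that were not called changed sign, and 0 called values did. The 56-day maximum came without mdx replicate 2.

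For the other calcium handling genes the alternatives were chosen after seeing the data, and brackets again give the calls over all probe sets. Without the filter 0 were called at 23 days (324 to 293, then of 12422). With quantile normalization 0 were called at 23 days (324 to 218) and 6 at 56 days (1547 to 1321). Relative to the fast muscle genes 0 were called at 28 (275 to 89) and 112 days (1131 to 144). With array weights 5 were called at 23 days (324 to 1293) and 3 at 28 days (275 to 519). Without the arrays of high Alb 0 were called at 23 days (324 to 326) and 6 at 56 days (1547 to 1202). Within the arrays of an age 0, 6 and 2 were called at 23, 56 and 112 days. Single arrays left out gave 0 to 2 at 23 days, 0 to 1 at 28 days, 3 to 10 at 56 days, 3 to 7 at 112 days and 8 to 9 in the mean.

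Same-numbered control and mdx arrays deviated together in 1 of 18 pairs (correlation over 0.1, range -0.225 to 0.147). These correlations do not show a pairing by number, but they cannot exclude 1 that touches only some genes or ages. With the replicate block within ages, 1 member was called for the dependence on age (Cacna1s F = 4.62, adjusted p = 0.0845; Ryr1 F = 4.83, 0.075) and 0 listed genes at 23 days. Over all 9291 probe sets these calls went from 830 to 478 and from 324 to 228. The block was not fitted for the age changes within a genotype.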
